A study of Mus musculus with 2 samples.

Results

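Blood vessel endothelial cells were examined in single-cell libraries of tissue labelled olfactory epithelium from 2 male wildtype C57BL/6J mice, with 1 droplet library per mouse. Of 23816 cells, 280 were selected on their UMIs of 12 marker genes. A cell was a barcode with at least 1000 unique molecular identifiers (UMIs, each standing for 1 captured RNA molecule), at least 300 genes and at most 15% of UMIs from mitochondrial genes. A blood endothelial cell had a UMI of at least 3 of the 7 endothelial genes Flt1, Cdh5, Pecam1, Emcn, Cd93, Kdr and Tie1, and of at most 1 of the 5 lymphatic genes Mmrn1, Flt4, Prox1, Lyve1 and Reln. Both mice belong to 1 group: neither label gives an age, a treatment or a genetic change. The titles number the libraries as samples of wildtype mouse and name no animal, so each library was taken as 1 mouse. With no condition to compare, the endothelial cells were set against other cells of the same mice. The libraries held 95844802 and 86049057 UMIs. The tissue had been digested with enzymes and treated to lyse erythrocytes, per the labels' protocols.

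Endothelial cells line every blood vessel as a single layer and form the barrier between blood and tissue. Arteries, capillaries and veins carry different endothelial programmes: arterial cells use Notch signalling and connexins, capillary cells take up lipids and exchange solutes, and cells of small veins display the selectins on which leukocytes roll. The same layer produces nitric oxide and endothelin, which set the tone of the surrounding muscle, and in inflamed or injured tissue it makes chemokines and adhesion molecules. Lymphatic endothelial cells are their closest relatives and share many surface proteins with them.

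Mouse 1 held 182 blood endothelial cells among 14136 cells, a share of 1.29% (95% Clopper-Pearson interval 1.11 to 1.49%), and mouse 2 held 98 among 9680, a share of 1.01% (0.823 to 1.23%). These intervals, like the Poisson intervals of levels and the intervals of ratios given later, cover counting error only. They do not cover the spread between cells or between mice. A further 148 cells of mouse 1 and 85 of mouse 2 had 2 of the 7 markers and lay just outside the rule, while 74 and 24 of the selected cells had just 3. All 7 markers were found in 13 cells of mouse 1 and 11 of mouse 2. Another 30 and 11 cells had at least 3 endothelial markers but 2 lymphatic ones and were also outside. The libraries shared 483 barcodes among their cells, none of them between blood endothelial cells of both mice.

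Many of the selected cells of mouse 1 also carried markers of another class. The other classes, among them lymphatic endothelial, mural, fibroblast, cartilage and leukocyte classes, were defined in the same way by at least 3 markers of their own. In mouse 1, 101 of 182 blood endothelial cells (55.5%, 48.0 to 62.9%) met such a rule as well, against 23 of 98 in mouse 2 (23.5%, 15.5 to 33.1%). The cartilage rule was met by 78 cells in mouse 1 and 7 in mouse 2, the fibroblast rule by 33 and 4, and the mural rule, for the pericytes and smooth muscle cells of the vessel wall, by 15 and 14. The cells with more than 1 class had median depths of 4042 and 4134 UMIs, against 2199 and 2182 UMIs for the cells of 1 class and 3908.5 and 5199 UMIs for all cells. A doublet caller (Scrublet) set its threshold above every cell and called 0 doublets in either library, so doublets were not removed.

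The label was checked with 20 endothelial genes that the rule did not use, such as Cldn5, Egfl7, Tek and Plvap. Their summed level, given as CPM (the UMIs of a gene relative to all UMIs of the class, scaled to the usual common total), was 6275 and 8234 CPM in mouse 1 and mouse 2 in the blood endothelial cells that met no other class rule. It was 3268 and 4683 CPM in lymphatic endothelial cells, 473 and 575 CPM in mural cells, 796 and 835 CPM in fibroblasts, and 485 and 630 CPM in near-empty barcodes of at most 50 UMIs, taken as a measure of free RNA. Within the selected cells of 1 class, every number of markers gave a high level when cells were pooled. Those with only 3 markers reached 4451 and 7094 CPM, and those with all 7 reached 7108 and 11756 CPM. Single cells could be low. A cell of mouse 1 with 3 markers and 11180 UMIs had 0.00894% of its UMIs from the 20 genes. In mouse 2 a cell with 3 markers and 2722 UMIs had 0.0367%. Both were kept in the comparisons. Taken over all cells, those of more than 1 class included, cells with 3 markers had 2127 and 5614 CPM and cells with 2 markers 724 and 605 CPM.

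The cells that also met the cartilage rule were lower, at 1524 CPM in mouse 1 and 3474 CPM in mouse 2. Their summed level of the 7 cartilage markers was 3725 and 2744 CPM, against 6432 and 6931 CPM in cartilage cells and 279 and 151 CPM in the blood endothelial cells of 1 class. Near-empty barcodes held 3907 and 4005 CPM of the same 7 markers. Cells that also met the mural rule kept 3287 and 5357 CPM of the 20 endothelial genes. The comparisons that follow therefore used the 81 and 75 cells of 1 class, with 243827 and 198205 UMIs in all, and the part of free RNA or of 2 cells in 1 droplet in the others was not tested.

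**Figure D1:**
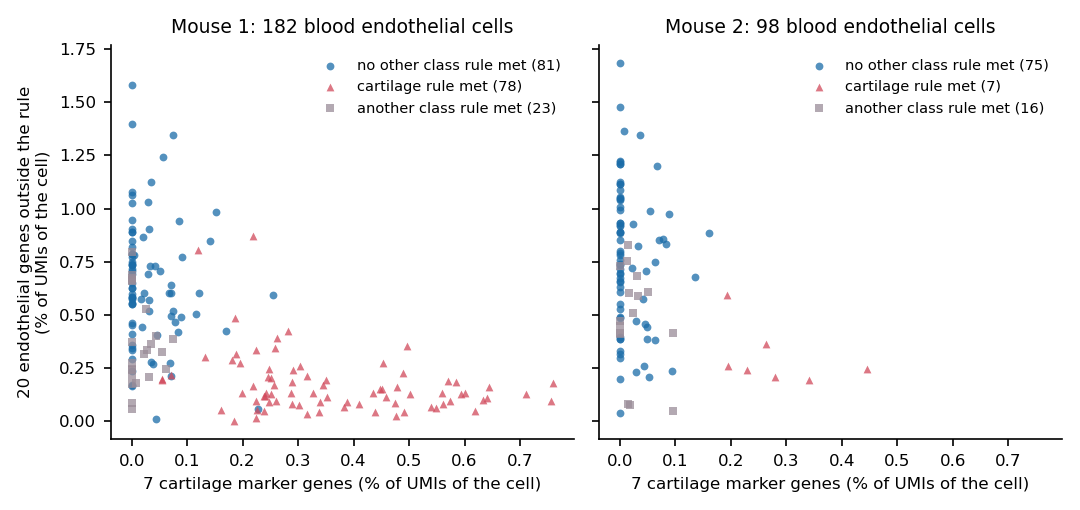
Each point is 1 of the 182 blood endothelial cells of mouse 1 (left) or 98 of mouse 2 (right); the x axis gives the percent of its UMIs from 7 cartilage marker genes and the y axis the percent from 20 endothelial genes outside the rule. The 78 cells of mouse 1 that also met the cartilage rule (red triangles) spread to the right and mostly low, and mouse 2 had 7 such cells.

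The 156 cells of 1 class also held UMIs of other cell types, of which the class rules set the upper end, since a cell with at least 3 markers of another class was left out. Markers of B cells were at 0 in both mice, those of macrophages were at 16.4 and 10.1 CPM for 7 genes, and 5 genes of olfactory sensory neurons summed to 4.10 CPM in mouse 1 and 0 in mouse 2. Near-empty barcodes also held little of these neuron genes, 4.21 and 4.51 CPM, so their low level does not bear on the purity of the cells. The 7 T and NK cell markers summed to 24.6 and 0 CPM. A set of 5 abundant fibroblast genes (Col1a1, Col1a2, Col3a1, Dcn, Lum) summed to 7054 CPM in mouse 1 and 3229 CPM in mouse 2, with 57272 and 52485 CPM in fibroblasts and 21792 and 25064 CPM in near-empty barcodes. In mouse 1 the 26 cells with only 3 markers held 20171 CPM of them, close to the near-empty barcodes. Lymphatic endothelial cells held less of these 5 genes, 2684 and 1051 CPM (median log2 fold change 1.55, with 0 of 5 called). The part of fibroblast RNA in the calls against lymphatic cells was not tested. The 7 mural markers summed to 353 and 363 CPM in the blood endothelial cells of 1 class, against 29.3 and 24.9 CPM in lymphatic endothelial cells, 8244 and 9649 CPM in mural cells and 312 and 332 CPM in near-empty barcodes. The part of this difference in the results of genes that are as high or higher in mural cells, such as Sparcl1, Sparc, Il6, Nrp1 and Epas1 below, was not tested. The median share of mitochondrial UMIs was 5.56% and 6.94%, against 4.17% and 4.87% over all cells.

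The rule's own markers describe the selected cells and were not tested. Flt1, the VEGF receptor that binds its ligand most tightly, led with 1456 CPM in mouse 1 and 2048 CPM in mouse 2, and was found in 80.2% and 88.0% of cells. Pecam1, an adhesion molecule of endothelial contacts, had 976 and 1059.5 CPM, and Emcn, a sialomucin of veins and capillaries, had 627 and 727 CPM. Cdh5, the cadherin of endothelial junctions, had 603 and 494 CPM. Cd93, a receptor of the endothelial surface, had 582 and 812 CPM, and Kdr, the main signalling receptor for VEGF, had 369 and 616 CPM. Tie1, the receptor related to Tek, was lowest at 217 and 424 CPM and was found in 35.8% and 49.3% of cells. Of the 7, Flt1 and Cd93 were low in lymphatic endothelium: Flt1 stood at 6.97 and 7.93 CPM and Cd93 at 23.7 and 24.9 CPM there, while Tie1, at 296 and 378 CPM, and Kdr, at 296 and 297 CPM, were found in both kinds of endothelium.

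To find genes beyond the rule, UMIs were summed per mouse and class for the 10 classes with at least 20 cells in both mice. The 10973 genes that passed a filter on low counts were tested in edgeR (quasi-likelihood F test, mouse as block), with a Benjamini-Hochberg adjusted p under 0.05 as the threshold. Genes of every class rule were left out of the tests. The other genes were measured in the same cells that the markers chose, so the tests describe how marker-defined classes differ. With n = 2 mice and the mouse as a block, the spread used is how far class differences varied from mouse to mouse. It was estimated over all 10 classes together, not in the blood endothelial cells alone. The blood endothelial cells were compared with 339 lymphatic endothelial cells (165 and 174), with 228 mural cells (90 and 138), and with the mean log level of the other classes, mural, fibroblast, cartilage, macrophage, T and NK, neutrophil, mast and Schwann. In that last comparison a gene abundant in a single class and nearly absent from the others can still be called higher in endothelium.

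Of the 10973 genes, 684 (6.23%) differed from lymphatic endothelial cells: 460 (4.19%) were higher and 224 (2.04%) lower in blood endothelial cells. Against mural cells 1270 genes (11.6%) differed, 646 (5.89%) higher and 624 (5.69%) lower. Against all other classes 1410 genes (12.8%) differed, 1223 (11.1%) higher and 187 (1.70%) lower. The median log2 fold change over all tested genes was -0.04, -0.06 and 0.08 in these comparisons, and the counts of gene lists given below are to be read beside these values. Both mice moved the same way for 682, 1270 and 1402 of the genes called, which were called from these same 2 mice. The class libraries of the blood endothelium were small: 3 UMIs over both mice, taken as the floor of detection, were 6.79 CPM, against 1.87 CPM in lymphatic endothelial and 3.49 CPM in mural cells.

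The 20 endothelial genes outside the rule separated the classes to different degrees. Against lymphatic endothelial cells 11 of 20 were higher and none lower, with a median log2 fold change of 1.89. Against mural cells 19 were higher and none lower (median 5.45), and against all other classes all 20 were higher (median 7.26). The gene not called against mural cells was Esam, an adhesion molecule of endothelial and platelet contacts, with 295 and 434 CPM in blood endothelial cells against 180 and 327 CPM in mural cells.

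Cyyr1, a small membrane protein gene, was the most abundant of the 20, with 988 and 843 CPM in blood endothelial cells against 245 and 194 CPM in lymphatic endothelial cells (log2 fold change 1.99, SE 0.382, adjusted p = 0.000974). Plvap, which forms the diaphragms of fenestrae and caveolae, had 496 and 949 CPM in blood endothelial cells and 34.9 and 40.8 CPM in lymphatic ones (4.15, SE 0.413, adjusted p = 1.27e-07). In mouse 2 a single cell held 77 of its 188 UMIs. Both genes were higher in blood than in lymphatic endothelial cells in each mouse.

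Eng, the co-receptor for TGF-beta and BMP ligands, had 751 and 681 CPM in blood endothelial cells against 183 and 209 CPM in lymphatic endothelial cells (log2 fold change 1.79, SE 0.389, adjusted p = 0.00340). Ptprb, the phosphatase that restrains Tie2 and VE-cadherin signalling, had 562 and 777 CPM against 144 and 152 CPM (2.10, SE 0.390, adjusted p = 0.000913). Adgrl4, an adhesion receptor of vascular endothelium, had 230 and 540 CPM against 62.8 and 54.3 CPM (2.62, SE 0.449, adjusted p = 0.000531). Each of these was higher in both mice. Cldn5, the claudin of tight junctions, had 369 and 560 CPM in blood endothelial cells against 812 and 1251 CPM in lymphatic ones, and did not pass the test (adjusted p = 0.142). Ramp2, part of the adrenomedullin receptor, had 414 and 575 CPM against 619 and 1269 CPM (adjusted p = 0.172).

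**Figure D2:**
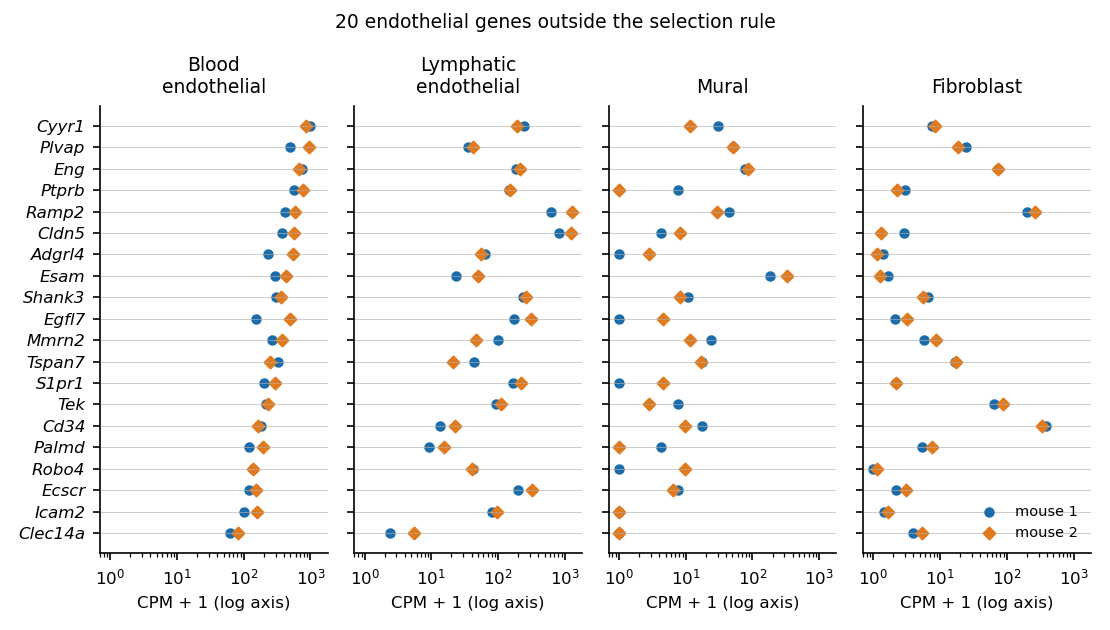
Level of the 20 endothelial genes outside the rule as CPM plus 1 on a log axis, per mouse (circles, mouse 1; diamonds, mouse 2), in blood endothelial, lymphatic endothelial, mural and fibroblast cells. Every gene is above 50 CPM in both mice in the left panel, Esam stands high in the mural panel too, and Cd34 and Ramp2 stand high in the fibroblast panel.

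Of these genes, 10 were higher in all 3 comparisons, and the stretch in front of the start of 6 of them was in the RefSeq promoter table (build GRCm38.p6). The sequences of Eng and Adgrl4 are shown as 2 of the more abundant of these genes, and that of Cd34, a sialomucin of endothelial and progenitor cells, since it holds the longer motif given below. Each is the 250 bases before the gene's start, on the gene's own strand, and capitals mark GGAAG or its reverse complement CTTCC, the core letters bound by ETS factors such as Erg and Fli1.
Eng, chr2:32646345-32646594, plus strand: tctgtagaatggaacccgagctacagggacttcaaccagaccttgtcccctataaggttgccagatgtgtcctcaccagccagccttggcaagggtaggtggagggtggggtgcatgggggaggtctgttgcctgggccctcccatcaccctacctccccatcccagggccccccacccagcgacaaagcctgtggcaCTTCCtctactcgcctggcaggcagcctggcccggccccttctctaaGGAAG
Adgrl4, chr3:151437632-151437881, plus strand: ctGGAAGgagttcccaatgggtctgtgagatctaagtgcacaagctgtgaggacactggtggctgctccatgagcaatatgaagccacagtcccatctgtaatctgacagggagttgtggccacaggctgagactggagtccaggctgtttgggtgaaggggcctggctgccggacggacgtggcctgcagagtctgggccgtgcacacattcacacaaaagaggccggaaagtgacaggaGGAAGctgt
Cd34, chr1:194938571-194938820, plus strand: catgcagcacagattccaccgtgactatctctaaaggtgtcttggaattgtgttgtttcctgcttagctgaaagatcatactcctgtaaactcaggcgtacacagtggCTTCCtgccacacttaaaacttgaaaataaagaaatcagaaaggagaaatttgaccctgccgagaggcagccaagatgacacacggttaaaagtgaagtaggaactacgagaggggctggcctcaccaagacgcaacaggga
The 5-letter core was found on either strand in all 6 promoters and in 63.6% of 27025 mouse promoters of the same length. The longer form CAGGAAG, which contains the core, was found in 2 of the 6 (Cd34 and Cyyr1) and in 10.5% of all promoters. The stretch of Cyyr1 lies inside the span of longer transcripts of that gene and is not shown.

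Transcription factors known from endothelium were higher than in mural cells in part and were mostly not called against lymphatic cells. Of 23 tested factors, 3 were higher and 1 lower than in lymphatic endothelial cells (median log2 fold change -0.10), 11 were higher and none lower than in mural cells (1.46), and 19 were higher and none lower than over all other classes (3.34). Epas1, the hypoxia-inducible factor of endothelium, had 636 and 540 CPM in blood endothelial cells against 126 and 71.3 CPM in lymphatic ones (2.54, SE 0.419, adjusted p = 0.000163). Mural cells held as much of it, at 693 and 573 CPM. Mef2c, a MADS-box factor, had 205 and 605 CPM against 131 and 119 CPM in lymphatic cells (1.54, SE 0.431, adjusted p = 0.0291).

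Tcf15, a helix-loop-helix factor, had 13 UMIs in blood and none in lymphatic endothelial cells, at least 15.7-fold higher (adjusted p = 0.00515). The homeobox gene Meox1 was the factor that was lower, with 32.8 and 15.1 CPM against 86.5 and 91.7 CPM in lymphatic cells (adjusted p = 0.0379). The ETS factor Erg had 168 and 237 CPM in blood endothelial cells against 76.7 and 90.6 CPM in lymphatic cells, which did not pass (adjusted p = 0.164), and against 10.0 and 7.14 CPM in mural cells (4.56, SE 0.676, adjusted p = 2.41e-05). Its relative Fli1 had 345 and 298 CPM, against 186 and 168 CPM in lymphatic cells (adjusted p = 0.321) and 30.0 and 16.1 CPM in mural cells (3.85, SE 0.504, adjusted p = 4.19e-06). Both factors were higher than in mural cells in both mice, and their difference from lymphatic cells missed the threshold.

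Genes of the VEGF, angiopoietin and TGF-beta pathways came next. Of 16 tested, 7 were higher and none lower than in lymphatic endothelial cells (median 1.39), 7 were higher and 1 lower than in mural cells (1.18), and 11 were higher and none lower than over all other classes (2.80). Among ligands, Pdgfb, which recruits pericytes, had 148 and 202 CPM in blood endothelial cells against 9.76 and 14.7 CPM in lymphatic ones (3.72, SE 0.582, adjusted p = 9.67e-05) and 13.3 and 7.14 CPM in mural cells (4.15, SE 0.681, adjusted p = 9.87e-05). Vegfc, the ligand of Flt4 that drives lymphatic growth, had 77.9 and 111 CPM against 12.6 and 0 CPM in lymphatic cells (3.98, SE 0.712, adjusted p = 0.000582). Angpt1, the Tek ligand made by mural cells, had 8.20 and 10.1 CPM in blood endothelial cells against 107 and 76.7 CPM in mural cells (-3.34, SE 0.666, adjusted p = 0.000999).

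Among receptors, Nrp1, the VEGF and semaphorin co-receptor, had 267 and 550 CPM in blood endothelial cells and a single UMI in lymphatic ones. The ratio was 630 (95% interval 112 to 25021, adjusted p = 5.13e-09). Mural cells had 273 and 307 CPM of it, and that difference did not pass (adjusted p = 0.601). Acvrl1, the BMP9 receptor that acts with Eng, had 160 and 166 CPM against 53.0 and 45.3 CPM in lymphatic cells (1.66, SE 0.417, adjusted p = 0.0123). The inhibitory SMAD genes Smad6, with 73.8 and 50.5 CPM against 9.76 and 3.4 CPM, and Smad7, with 111 and 101 CPM against 27.9 and 9.06 CPM, were also higher than in lymphatic cells (adjusted p = 0.00374 and 0.00144).

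Notch genes split by member. Of 12 tested, 2 were higher and 1 lower than in lymphatic endothelial cells (median 0.27), 5 higher and 2 lower than in mural cells (1.08), and 7 higher and 1 lower than over all other classes (3.51). The ligand Jag2 had 69.7 and 95.9 CPM in blood endothelial cells against 5.58 and 4.53 CPM in lymphatic cells (3.95, SE 0.784, adjusted p = 0.00192) and no UMI in mural cells, at least 23.4-fold higher. The ligand Jag1 had 86.1 and 75.7 CPM, above the 32.1 and 24.9 CPM of lymphatic cells (1.44, SE 0.420, adjusted p = 0.0366) and below the 167 and 198 CPM of mural cells (-1.23, SE 0.371, adjusted p = 0.0281). Dtx1, a regulator of Notch signalling, had 24.6 and 45.4 CPM against 325 and 454 CPM in lymphatic cells (-3.58, SE 0.542, adjusted p = 0.000128), and no UMI in mural cells. The arterial ligand Dll4 had 90.2 and 141 CPM against 50.2 and 34.0 CPM in lymphatic cells, which did not pass (adjusted p = 0.133). Heyl, a Notch target, had 8.20 and 5.05 CPM against 83.3 and 89.2 CPM in mural cells and was lower in blood endothelial cells in both mice (adjusted p = 0.00564, from 3 UMIs in these cells).

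Junction genes were called in 3 of 11 against lymphatic endothelial cells, all higher (median 0.69), in 6 of 11 against mural cells, all higher (2.05), and in 10 of 11 against all other classes, all higher (2.80). Jam2 had 267 and 262 CPM in blood endothelial cells against 5.58 and 2.26 CPM in lymphatic cells (6.04, SE 0.495, adjusted p = 7.34e-09). Jam3, its partner, had 61.5 and 50.5 CPM against 8.37 and 2.26 CPM (3.41, SE 0.701, adjusted p = 0.00197), and Esam had 295 and 434 CPM against 22.3 and 49.8 CPM (3.24, SE 0.474, adjusted p = 7.25e-05). Gja1, a connexin, had 775 and 464 CPM against 16.7 and 16.1 CPM in mural cells (5.13, SE 0.556, adjusted p = 4.04e-07).

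Of 9 genes of caveolae and permeability, Plvap and Ehd4, an ATPase at the caveolar neck, were higher than in lymphatic endothelial cells (median 0.13), 3 were higher than in mural cells (0.36) and 8 were higher than over all other classes (2.79). Ehd4 had 459 and 590 CPM in blood endothelial cells against 120 and 108 CPM in lymphatic cells (2.14, SE 0.418, adjusted p = 0.00117). Cavin1, a coat protein of caveolae, had 615 and 535 CPM, with 393 and 409 CPM in lymphatic and 666 and 671 CPM in mural cells, and passed neither test (adjusted p = 0.738 and 0.817). The levels of Cavin1 thus lay close together in the 3 classes, whereas Plvap and Ehd4 were apart.

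Genes known from the blood-brain barrier were partly detected. Of 15 listed, 10 were tested; 4 of these were higher than in lymphatic endothelial cells (median 2.01), 5 higher and 1 lower than in mural cells (1.95), and 5 higher than over all other classes (2.21). Abcb1a, the efflux pump P-glycoprotein, had 111 and 318 CPM in blood endothelial cells and 2 UMIs in lymphatic cells, a ratio of 163 (95% interval 43.8 to 1366, adjusted p = 8.72e-07). The Wnt effector Lef1 had 32.8 and 75.7 CPM against 6.97 and 2.26 CPM (3.49, SE 0.693, adjusted p = 0.00138). Slc2a1, the glucose transporter, had 41.0 and 60.5 CPM against 12.6 and 5.66 CPM (2.43, SE 0.729, adjusted p = 0.0436). Itm2a, a membrane protein of the endothelial barrier, had 49.2 and 449 CPM against 22.3 and 23.8 CPM (3.23, SE 0.604, adjusted p = 0.000974), and 60 of its 89 UMIs in mouse 2 came from 1 cell. The Wnt target Apcdd1 had 16.4 and 30.3 CPM against 60.0 and 104 CPM in mural cells (-1.90, SE 0.530, adjusted p = 0.0175).

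Adhesion molecules for leukocytes were called in 3 of 9 against lymphatic endothelial cells (median 0.44), 6 of 9 against mural cells (4.05) and 7 of 9 against all other classes (5.10), all higher. Sele, E-selectin, had 373 and 60.5 CPM in blood endothelial cells and a single UMI in lymphatic cells, a ratio of 373 (95% interval 65.5 to 14869, adjusted p = 3.24e-06). Icam1, the integrin ligand of inflamed endothelium, had 775 and 197 CPM against 770 and 232 CPM in lymphatic cells (adjusted p = 0.983). Both genes were higher in mouse 1 than in mouse 2, and 1 cell of mouse 1 held 41 of its 91 Sele UMIs and 93 of its 189 Icam1 UMIs. The call of Icam1 against mural cells ended under 3 of 11 alternative settings, without the deepest cell of each mouse among them (highest adjusted p = 0.0794). Cx3cl1, the membrane-bound chemokine fractalkine, had 45.1 and 15.1 CPM and 2 UMIs in lymphatic cells, a ratio of 25.3 (95% interval 5.82 to 230, adjusted p = 0.00340). Podxl, a sialomucin, had 468 and 419 CPM, against 219 and 262 CPM in lymphatic (adjusted p = 0.230) and 0 and 10.7 CPM in mural cells (5.98, SE 0.553, adjusted p = 1.64e-07).

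Inflammatory genes were found in every class shown here. The 18 listed genes summed to 5709 and 3320 CPM in blood endothelial cells, 4023 and 2284 CPM in lymphatic endothelial cells, 8590 and 2575 CPM in mural cells, and 4372 and 3539 CPM in near-empty barcodes. Of 17 tested, 4 were higher and 2 lower than in lymphatic cells (median 1.58), 1 was higher than in mural cells (-0.16), and 5 were higher than over all other classes (0.95). The cytokine Il6 had 591 and 192 CPM in blood endothelial cells against 55.8 and 21.5 CPM in lymphatic cells (3.24, SE 0.664, adjusted p = 0.00266), while mural cells had 1736 and 525 CPM (adjusted p = 0.112). Il1r1, the interleukin-1 receptor, had 332 and 75.7 CPM against 8.37 and 3.4 CPM in lymphatic cells (4.99, SE 0.704, adjusted p = 2.78e-05).

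Csf3, the granulocyte growth factor, had 504 and 207 CPM in blood endothelial cells against 27.9 and 10.2 CPM in lymphatic cells (4.17, SE 0.743, adjusted p = 0.00342) and no UMI in mural cells. Much of it came from few cells: 1 cell held 61 of its 123 UMIs in mouse 1 and 1 held 39 of 41 in mouse 2. Without those cells the call against lymphatic cells was lost (adjusted p = 0.248), as was that against mural cells (adjusted p = 0.0525). The scavenging chemokine receptors were lower than in lymphatic cells: Ackr3 had 250 and 111 CPM against 576 and 668 CPM (-1.89, SE 0.468, adjusted p = 0.0109), and Ackr2 had a single UMI against 172 UMIs (adjusted p = 0.000624).

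Genes of vascular tone were called in 5 of 11 against lymphatic endothelial cells (median 1.31), 7 of 11 against mural cells (2.51) and 9 of 11 against all other classes (3.67), all higher. Edn1, the vasoconstrictor endothelin, had 77.9 and 182 CPM in blood endothelial cells and a single UMI in lymphatic cells, a ratio of 199 (95% interval 34.3 to 8006, adjusted p = 9.50e-06). Nos3, the endothelial nitric oxide synthase, had 156 and 227 CPM against 53.0 and 96.2 CPM in lymphatic cells (1.31, SE 0.368, adjusted p = 0.0314), and mural cells had 2 UMIs. Ace, which makes angiotensin II, had 197 and 338 CPM against 82.3 and 45.3 CPM (2.08, SE 0.482, adjusted p = 0.00629). Ptgs1, the constitutive cyclooxygenase, had 73.8 and 111 CPM against 13.9 and 9.06 CPM (2.93, SE 0.706, adjusted p = 0.00928), and Ednrb, the endothelin B receptor, had 172 and 90.8 CPM against 26.5 and 14.7 CPM (2.64, SE 0.622, adjusted p = 0.0102). Each of these 5 was higher than in lymphatic cells in both mice.

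Of 12 tested genes of haemostasis, 2 were higher and 1 lower than in lymphatic endothelial cells (median -0.22), 3 higher and 1 lower than in mural cells (0.53), and 6 higher than over all other classes (1.49). Entpd1, the enzyme CD39 that breaks down extracellular ATP and ADP, had 541 and 474 CPM in blood endothelial cells against 16.7 and 20.4 CPM in lymphatic cells (4.66, SE 0.570, adjusted p = 2.57e-06). Thbd, thrombomodulin, had 308 and 283 CPM against 144 and 194 CPM in lymphatic (adjusted p = 0.341) and 107 and 67.8 CPM in mural cells (1.76, SE 0.399, adjusted p = 0.00305). Procr, the protein C receptor, had 139 and 106 CPM, above lymphatic cells at 62.8 and 22.6 CPM (1.53, SE 0.409, adjusted p = 0.0209) and below mural cells at 453 and 300 CPM (-1.65, SE 0.377, adjusted p = 0.00336). Its call against lymphatic cells ended under 5 of the 11 settings, with log2 fold changes of 0.85 to 1.48 and a highest adjusted p of 0.366, and that against mural cells under 1 (-1.03, adjusted p = 0.0832). Pdpn, podoplanin, known as a lymphatic glycoprotein that activates platelets, had 24.6 and 15.1 CPM against 446 and 340 CPM in lymphatic cells (-4.41, SE 0.601, adjusted p = 1.34e-05).

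Of 15 tested basement membrane genes, 4 were higher than in lymphatic endothelial cells (median 0.23), 1 was higher than in mural cells (-0.14), and 14 were higher than over all other classes (3.24); none was lower. Sparcl1, a matricellular protein of vessels, had 849 and 873 CPM in blood endothelial cells against 4.18 and 2.26 CPM in lymphatic cells (8.03, SE 0.727, adjusted p = 2.24e-08), with 2332 and 2154 CPM in mural cells (adjusted p = 0.0504). Col15a1, a collagen of the vascular basement membrane zone, had 230 and 166 CPM against 11.2 and 5.66 CPM in lymphatic cells (4.52, SE 0.514, adjusted p = 1.05e-06) and 13.3 and 21.4 CPM in mural cells (3.37, SE 0.504, adjusted p = 3.05e-05). Sparc, which binds collagen, had 3843 and 4001 CPM against 1236 and 640 CPM in lymphatic cells (2.01, SE 0.572, adjusted p = 0.0316), with 6051 and 7693 CPM in mural cells. The collagen IV chain Col4a1 had 291 and 515 CPM, against 239 and 404 CPM in lymphatic (adjusted p = 0.890) and 503 and 612 CPM in mural cells (adjusted p = 0.559). Near-empty barcodes held 19333 and 23560.4 CPM of the whole list, above the 6927 and 7845 CPM of blood endothelial cells.

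Lipid handling genes were called in 3 of 10 against lymphatic endothelial cells, all higher (median 0.88), in 2 higher and 1 lower against mural cells (-0.08), and in 3 higher against all other classes (1.33). Fabp4, a fatty acid binding protein of capillaries, had 427 and 969 CPM in blood endothelial cells against 16.7 and 27.2 CPM in lymphatic cells (4.85, SE 0.739, adjusted p = 0.000340). Scarb1, the HDL receptor, had 324 and 323 CPM against 6.97 and 4.53 CPM (5.76, SE 0.555, adjusted p = 5.03e-08). Lpl, lipoprotein lipase, which endothelium displays but does not make, had 16.4 and 30.3 CPM against 193 and 255 CPM in mural cells (-3.33, SE 0.533, adjusted p = 6.99e-05). Gpihbp1, the protein that anchors that lipase on capillaries, had 57.4 and 197 CPM against 102 and 120 CPM in lymphatic cells and 2 UMIs in mural cells.

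Guidance molecules (semaphorins, plexins, Slits and netrins) differed in both directions from lymphatic endothelium: of 18 tested, 5 were higher and 3 lower (median 0.75). Against mural cells 9 were higher and 1 lower (1.74), and against all other classes 11 were higher (2.55). Sema7a, a membrane-anchored semaphorin, had 279 and 378 CPM in blood endothelial cells and 2 UMIs in lymphatic cells, a ratio of 259 (95% interval 70.4 to 2158, adjusted p = 7.34e-09). The receptor Plxnd1 had 197 and 242 CPM against 43.2 and 44.2 CPM (2.24, SE 0.427, adjusted p = 0.000871). Among the secreted semaphorins, Sema3a had 16.4 and 30.3 CPM against 184 and 291 CPM in lymphatic cells (-3.44, SE 0.472, adjusted p = 2.49e-05), and Sema3d had 36.9 and 35.3 CPM against 227 and 352 CPM (-3.05, SE 0.436, adjusted p = 2.48e-05), while Sema3g, given with the arterial markers below, was higher than in lymphatic cells. Unc5b, a netrin receptor, had 28.7 and 30.3 CPM against 172 and 118 CPM (-2.36, SE 0.458, adjusted p = 0.00106).

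Of 19 tested interferon-linked and MHC genes, 6 were higher than in lymphatic endothelial cells and none lower (median 2.60); 5 were higher than in mural cells (1.53) and 7 than over all other classes (1.31). The largest fold changes against lymphatic cells were those of 2 surface proteins of the Ly6 family. Ly6c1 had 1317 and 2326 CPM in blood endothelial cells against 13.9 and 12.5 CPM in lymphatic cells (7.0, SE 0.533, adjusted p = 3.87e-09), and Ly6a, known as Sca-1, had 701 and 1170.5 CPM against 34.9 and 21.5 CPM (5.05, SE 0.599, adjusted p = 1.50e-06). The interferon-induced gene Ifit1 had 164 and 55.5 CPM against 20.9 and 4.53 CPM (3.1, SE 0.657, adjusted p = 0.00321).

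Of 18 immediate early genes, 1 was lower than in lymphatic cells (Ccn1), 1 higher than in mural cells (Ier3) and 1 higher than over all other classes (Myc), with medians of 0.29, 0.21 and -0.19. The list summed to 10212 CPM in mouse 1 and 6140.1 CPM in mouse 2, with 13103 and 4062 CPM in lymphatic endothelial cells. Of 10 heat shock genes, 1 (Hspa1b) was lower than in lymphatic cells, none was called against mural cells and 1 (Hspb1) was higher than over all other classes. Of 9 tested proliferation genes none was called against lymphatic or mural cells, and 1 (Ccnd1) was higher than over all other classes. Of these calls, that of Hspa1b ended under 7 of 11 (highest adjusted p = 0.335), Ccn1 under 4 (0.156), Ier3 under 2 (0.205) and Myc under 2 (0.222). With 1 or no gene called per list and comparison, these lists gave no result of their own.

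Of 11 tested lymphatic genes outside the rule, 7 were lower in blood than in lymphatic endothelial cells and none higher (median -2.29). Ccl21a, the chemokine that draws dendritic cells into lymphatics, had 20.5 and 60.5 CPM in blood endothelial cells against 5911 and 4985 CPM in lymphatic cells (-7.21, SE 0.660, adjusted p = 2.86e-08). The transcription factor Maf had 45.1 and 70.6 CPM against 650 and 843 CPM (-3.78, SE 0.626, adjusted p = 0.000211), and Fgl2, a fibrinogen-like protein, had 69.7 and 40.4 CPM against 868 and 745 CPM (-4.07, SE 0.573, adjusted p = 2.04e-05). Piezo2, a mechanically gated channel, had 28.7 and 50.5 CPM against 276 and 368 CPM (-3.12, SE 0.454, adjusted p = 4.53e-05). The 5 lymphatic rule genes themselves summed to 131 and 177 CPM, against 5324 and 6106 CPM in lymphatic cells, which the rule fixes.

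**Figure D3:**
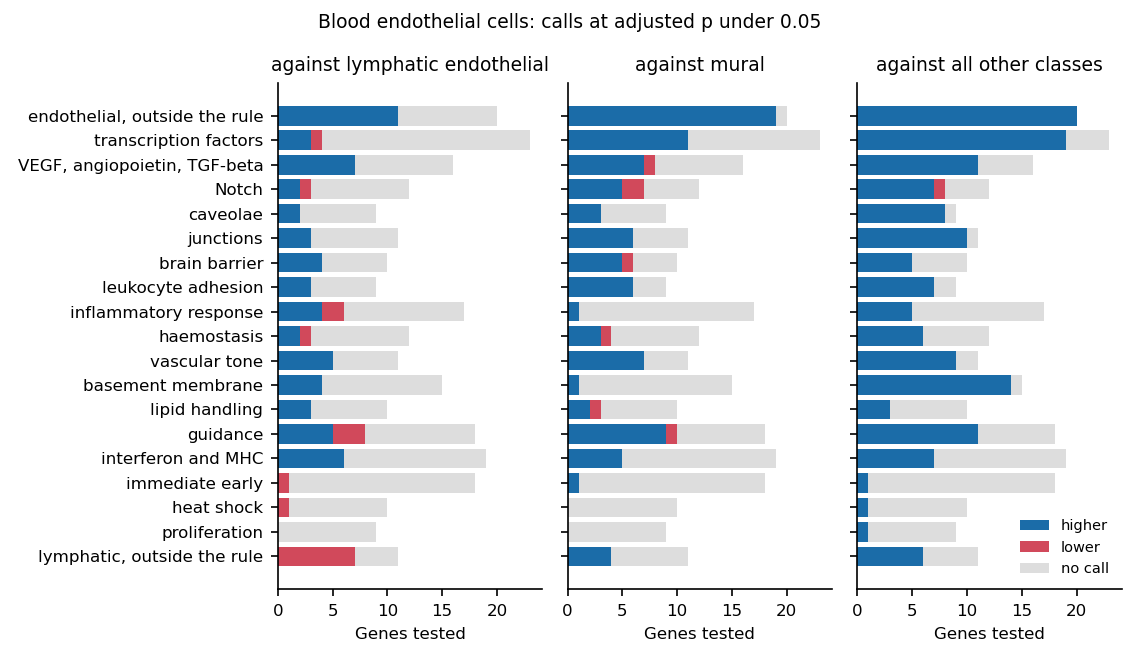
Number of tested genes per list (bar length) that were higher (blue) or lower (red) in blood endothelial cells or not called (grey) at an adjusted p under 0.05, against lymphatic endothelial cells, mural cells and the mean of all other classes. Of 20 endothelial genes outside the rule, 11, 19 and 20 were higher, while of 11 lymphatic genes 7 were lower in the left panel.

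By fitted log2 fold change, the 10 highest genes against lymphatic endothelial cells had no UMI there. Their order rests on the fit, and the folds given are lower bounds, below the ratios of 630 and 373 measured for Nrp1 and Sele. Csf2rb, the shared beta chain of the GM-CSF, interleukin-3 and interleukin-5 receptors, had 381 and 151 CPM in blood endothelial cells, at least 148-fold higher (adjusted p = 1.42e-07). Its near-identical copy Csf2rb2, the interleukin-3 form known in mouse, had 172 and 35.3 CPM, at least 59.1-fold higher. How reads were split between these copies is uncertain. Sox17, an arterial transcription factor, had 168 and 111 CPM, at least 76.0-fold higher (adjusted p = 2.78e-05). The urea transporter Slc14a1 had 119 and 126 CPM, at least 65.2-fold higher, and the calcium pump Atp2a3 had 77.9 and 95.9 CPM, at least 45.9-fold higher. Zfp366, a zinc finger factor, had 45.1 and 116 CPM, at least 41.0-fold higher, and Dach1, a factor of coronary artery growth, had 69.7 and 70.6 CPM, at least 37.4-fold higher.

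The rest of these 10 were Gm20663, Cd38, an enzyme that consumes NAD, and Tacr1, the substance P receptor, at least 57.9-fold, 29.0-fold and 30.2-fold higher. Tacr1 had 82.0 and 25.2 CPM in blood endothelial cells. Gm20663 overlaps Gm4070 on the other strand, and the sources used here do not say whether strand was used in counting, so their reads cannot be told apart. The same limit holds for 43 of the 219 genes chosen for naming, which share exon bases with a gene of the other strand in the GENCODE annotation, among them Sox17, Selp, Nos3, Icam1, Vcam1, Eng, Edn1 and Abcb1a; Cyyr1 and 13 others share them with a gene of the same strand. The largest falls were the copies of the Ccl21 cluster: Gm10591 had no UMI in blood endothelial cells against 1365 and 674 CPM in lymphatic cells, at least 145-fold lower, and Ccl21d, Ccl21b, Ccl21a, Gm13304 and Gm13307 followed, with the split of reads among the copies uncertain. Outside that cluster, Apba2, an adaptor of amyloid precursor protein, had no UMI against 75.3 and 104 CPM, at least 13.4-fold lower. Tnfaip8l3, Gmfg and Cd2, the last known as a T cell adhesion molecule, were at least 8.47-fold, 8.19-fold and 7.73-fold lower.

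Against mural cells the largest rises after Csf3 were again genes without a UMI in the other class. Fam110d had 250 and 161 CPM in blood endothelial cells, at least 60.3-fold higher (adjusted p = 1.80e-06), and the adhesion receptor Adgrg1 had 189 and 197 CPM, at least 55.2-fold higher. Arap3, a regulator of Arf GTPases, had 176 and 192 CPM, at least 52.6-fold higher, Arhgef15, an endothelial guanine nucleotide exchange factor, was at least 38.9-fold higher, and Icam2, an adhesion molecule of resting endothelium, had 98.4 and 156 CPM, at least 35.7-fold higher. Exoc3l2, St6galnac3, Slc14a1 and Adcy4 completed the 10, at least 37.0-fold, 35.0-fold, 35.0-fold and 32.4-fold higher. The largest falls against mural cells included Rasl12, with no UMI against 130 and 352 CPM in mural cells, at least 40.4-fold lower, and Gucy1a2, a subunit of the nitric oxide receptor guanylyl cyclase, with no UMI against 150 and 236 CPM, at least 30.3-fold lower. P2rx1, the ATP-gated channel of smooth muscle, was at least 21.4-fold lower, and Cap2, Pla2r1, Ddit4l, Susd2, Speg and Gpr176 were between at least 17.6-fold and at least 10.4-fold lower.

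Against the mean of all other classes the 10 largest rises were Adgrl4, Fam110d, Sox17, Dipk2b, Robo4, Mecom, Zfp366, Clic5, Gpihbp1 and Ptprb. Mecom, a transcription factor of arterial and haematopoietic cells, had 238 and 479 CPM in blood endothelial cells against means of 0.274 and 1.16 CPM over the other classes, and Robo4, the endothelial Robo receptor, had 135 and 136 CPM against 0.0215 and 1.15 CPM. The largest falls included Spi1, the myeloid factor PU.1, which like Tiam1, Apbb1ip, Itgb7, Pygl and Il1rl1 had no UMI in blood endothelial cells; Arhgap15, Dock2, Antxr2 and Emb had between 1 and 5 UMIs. With DESeq2 in place of edgeR, 5 of the 10 rises were no longer called: Sox17 (adjusted p = 0.330), Dipk2b (0.367), Robo4 (0.0825), Zfp366 (0.383) and Gpihbp1 (0.142). Of the falls, Spi1 and Il1rl1 lost the call under 5 of 11 settings each, Dock2 under 3, Tiam1, Itgb7, Pygl, Arhgap15 and Emb under 2 each and Apbb1ip under 1. The highest adjusted p was 0.0798 for Apbb1ip and 1 for each of the others, reached where another class was asked for 2 or 4 markers. In those 2 settings 11 classes entered the fit in place of 10, so the mean was over a different set of classes.

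Several other calls ended under 1 or more of the 11 alternative settings. Some are given here with the number of settings and the highest adjusted p. Against lymphatic cells these included Jag1 (7 settings, 0.255), Nos3 (6, 0.246), Mef2c (4, 0.159), Meox1 (4, 0.0686), Sparc (3, 0.0835), Slc2a1 (2, 0.0995), Ptgs1 (1, 0.127), Ednrb (1, 0.266) and Cd36 (1, 0.0747). Against mural cells they included Smad6 (7, 0.160), Jag1 (4, 0.364), Fabp4 (4, 0.0902), Slc7a5 (3, 0.0879) and Sema3a (3, 0.535). Cd36 (2, 0.215), Ifit1 (2, 0.0844), Sema3d (1, 0.339), Apcdd1 (1, 0.0626) and Thbd (1, 0.0643) lost theirs as well. Under DESeq2 the calls of Sox17, Gpihbp1 and Robo4 against mural cells ended too (adjusted p = 0.625, 0.589 and 0.514). With DESeq2 in place of edgeR, the calls of Sox17, Zfp366, Tacr1, Tcf15 and Tnfaip8l3 against lymphatic cells ended (adjusted p = 0.504, 0.568, 0.272, 0.326 and 0.552), all of them genes with no UMI in 1 of the 2 classes. Of 3 leukocyte adhesion genes called against lymphatic cells, Vcam1 lost its call under 1 setting, without the deepest cell of each mouse (log2 fold change 6.34, against 7.22 with it; adjusted p = 0.0726). Of the other lists, Ly6e lost its call under 6 settings (1.04 to 1.53, highest adjusted p = 0.150), Hspg2 under 4 (1.40 to 1.58, 0.111), H2-K1 under 3 (1.24 to 1.46, 0.161) and Tnfaip3 under 3 (1.44 to 2.16, 0.180). Among the guidance genes higher than in lymphatic cells, Sema4a lost its call under 2 settings (0.92 to 2.84, 0.693). Plxna2 did so under 2 (1.48 to 1.52, 0.0824) and Slit3 under 1 (2.40, 0.0615).

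The selected cells were then described by vessel segment, with 4 lists of 7 markers for arterial, capillary, venous and angiogenic endothelium. A cell was assigned to the list with the most markers detected if it had at least 2, and ties were left unassigned. In mouse 1, 11 of the 81 cells of 1 class were arterial (13.6%, 6.98 to 23.0%), 15 capillary (18.5%, 10.8 to 28.7%), 22 venous (27.2%, 17.9 to 38.2%) and none angiogenic, which allows a share of up to 4.45%. In mouse 2, 6 of 75 were arterial (8.0%, 2.99 to 16.6%), 20 capillary (26.7%, 17.1 to 38.1%), 12 venous (16%, 8.55 to 26.3%) and 4 angiogenic (5.33%, 1.47 to 13.1%). The intervals of the 2 mice overlapped for each of the 4 segments. Another 32 and 30 cells (39.5% and 40.0%) had fewer than 2 markers of every list. These cells were shallower, with medians of 1749.5 and 1983 UMIs, than the arterial cells, with 3018 and 2704 UMIs.

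**Figure D4:**
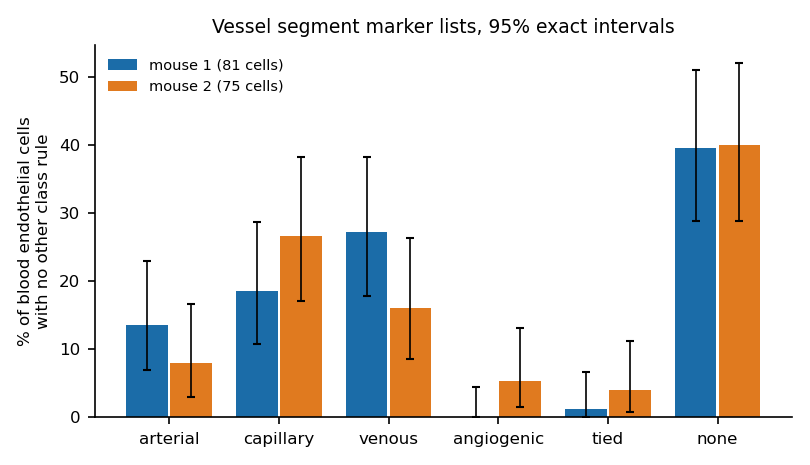
Percent of the blood endothelial cells of 1 class in each vessel segment, with 95% Clopper-Pearson intervals, for mouse 1 (81 cells) and mouse 2 (75 cells). The largest bars are cells with too few segment markers, 39.5% and 40.0%, and the intervals of the mice overlap in every pair of bars.

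The segments hold too few cells for a test between them: fewer than 20 of each kind in at least 1 mouse. Genes outside the segment lists are therefore given as levels, with counting error only. Nearly all Vegfc UMIs of these segments lay in arterial cells: 9 UMIs (240 CPM) in mouse 1 and 20 UMIs (994 CPM) in mouse 2, against 1 UMI over the capillary and venous cells of mouse 1 and none over those of mouse 2. It came from 4 arterial cells of mouse 1 and 3 of mouse 2. Mouse 1 had 19 Vegfc UMIs in all, so that cells outside the 3 segments, with 5 UMIs in those of too few markers and the rest in a tied cell, held as many as its arterial cells. Cldn5 was also highest in arterial cells, with 958 and 3431 CPM, against 304 and 119 CPM in capillary and 206 and 199 CPM in venous cells, although 1 arterial cell of mouse 2 held 34 of 69 UMIs there. Ptprb had 932 and 1690.4 CPM in arterial, 456 and 952 CPM in capillary and 576 and 570 CPM in venous cells. Nos3 had 240 and 696 CPM in arterial, 243 and 153 CPM in capillary and 130 and 114 CPM in venous cells, so only in mouse 2 was the arterial level the higher one.

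Other genes were higher in capillary cells than in the other 2 segments. Mef2c had 395 and 1258 CPM there, against 186 and 199 CPM in arterial and 141 and 370 CPM in venous cells. Ednrb had 243 and 221 CPM in capillary, 26.6 and 0 CPM in arterial and 21.7 and 0 CPM in venous cells, while cells with too few markers had 391 and 32.7 CPM of it. Sema7a was low in venous cells, at 86.9 and 114 CPM, with 373 and 497 CPM in arterial and 638 and 714 CPM in capillary cells. Plvap, the diaphragm gene, was lowest in arterial cells, at 213 and 0 CPM, with 790 and 1973 CPM in capillary and 609 and 627 CPM in venous cells. Without the deepest cell of mouse 2 its capillary level there was 846 CPM. These levels rest on few UMIs: the capillary cells of mouse 1 held 32902 UMIs of all genes. In mouse 1 the capillary and arterial intervals of Mef2c and of Sema7a overlapped, as did the capillary and venous intervals of Plvap.

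Most E-selectin UMIs of these segments lay in venous cells. Sele had 880 and 256 CPM in venous cells, against 91.2 and 0 CPM in capillary and 53.2 and 0 CPM in arterial cells. Robo4 had 206 and 342 CPM in venous, 182 and 85.0 CPM in capillary and no UMI in arterial cells. Icam1 reached 1565 CPM in venous cells of mouse 1 but 199 CPM in venous cells of mouse 2, so its level differed between the mice more than between the segments of mouse 2. Much of the venous Sele and Icam1 of mouse 1 came from the single cell given with the adhesion molecules above. The intervals of Robo4 in venous and capillary cells overlapped in both mice.

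**Figure D5:**
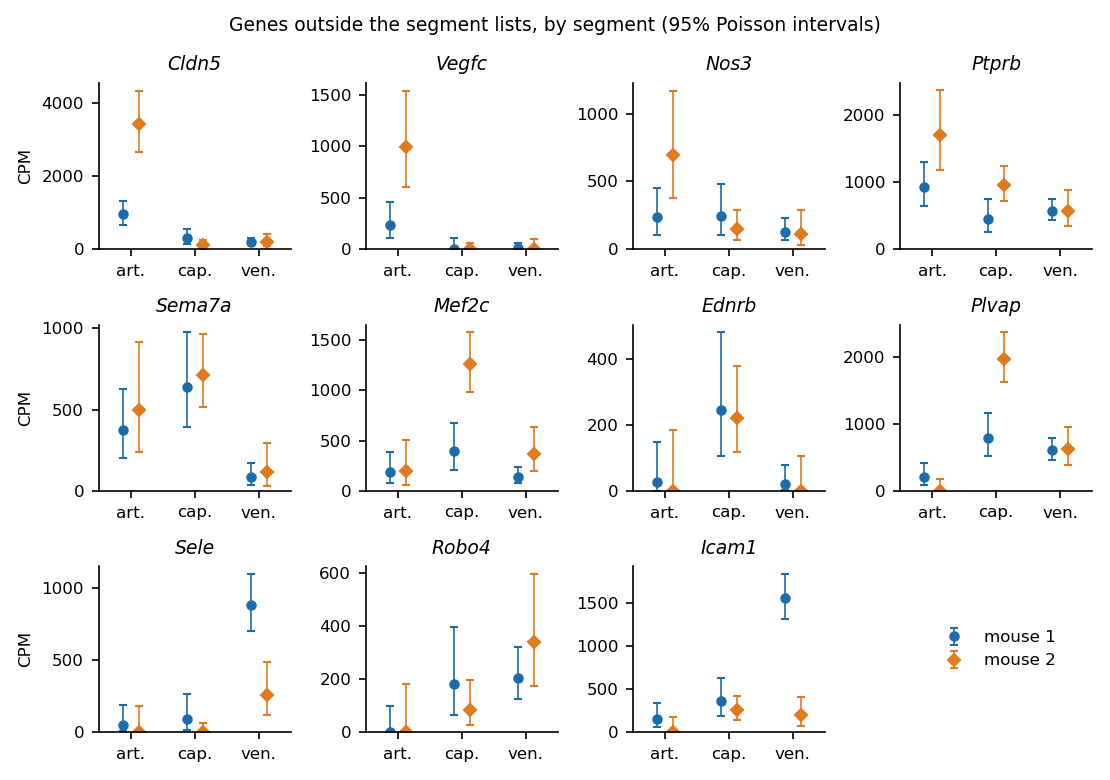
Level in CPM of 11 genes outside the segment lists in arterial (art.), capillary (cap.) and venous (ven.) cells of mouse 1 (circles) and mouse 2 (diamonds), with 95% Poisson intervals that cover counting error only. Vegfc and Cldn5 are highest in arterial cells in both mice, Mef2c and Ednrb in capillary cells, and Sele and Robo4 in venous cells.

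The segment markers were also set against the other classes. Of 6 tested venous markers, 3 were higher and 1 lower than in lymphatic endothelial cells, and 4 were higher and 1 lower than in mural cells. Vwf, von Willebrand factor, had 353 and 267 CPM in blood endothelial cells against 5.58 and 0 CPM in lymphatic cells (6.85, SE 0.603, adjusted p = 2.19e-08). Nr2f2, the venous and lymphatic nuclear receptor COUP-TFII, had 131 and 121 CPM, against 425 and 584 CPM in lymphatic (-2.07, SE 0.419, adjusted p = 0.00187) and 650 and 578 CPM in mural cells (-2.31, SE 0.422, adjusted p = 0.000358). Selp, P-selectin, had 1915 CPM in mouse 1 and 75.7 CPM in mouse 2, against 8.37 and 0 CPM in lymphatic cells (7.54, SE 1.03, adjusted p = 0.000163).

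Selp differed between the mice with and without its richest cell. The deepest blood endothelial cell of mouse 1, a venous one with 23852 UMIs where the next had 11180, held 293 of the 467 Selp UMIs and 17 of the 20 Ackr1 UMIs. The other 174 Selp UMIs lay in 18 cells (791 CPM without the deepest cell), while mouse 2 had 15 in 4 cells, 12 of them in 1. Ackr1, the chemokine receptor DARC of venules, lost its calls in all 3 comparisons without the deepest cell of each mouse (adjusted p = 0.231, 0.465 and 0.808). The summed venous list fell to 1350 CPM in mouse 1 without that cell, against 2703 CPM with it, and stood at 666 CPM in mouse 2. The deepest cell of mouse 2, a capillary one, had 12684 UMIs where the next had 7131.

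Of 6 tested capillary markers, 2 were higher than in lymphatic endothelial cells: Rgcc, a cell cycle regulator of capillaries, with 226 and 520 CPM against 30.7 and 10.2 CPM (4.23, SE 0.549, adjusted p = 6.13e-06), and Cd36, the fatty acid translocase, with 69.7 and 348 CPM against 5.58 and 14.7 CPM (4.19, SE 0.605, adjusted p = 4.79e-05). In mouse 2, 51 of the 103 Rgcc UMIs came from its deepest cell. Of 6 arterial markers, 2 were higher than in lymphatic cells, Sox17 and Sema3g, a secreted semaphorin of arteries, which had 61.5 and 55.5 CPM and a single lymphatic UMI, a ratio of 94.1 (95% interval 15.5 to 3859, adjusted p = 0.000145). Gja4, a connexin of arteries, had 45.1 and 25.2 CPM and was lower than in mural cells, at 187 and 170 CPM (-2.33, SE 0.494, adjusted p = 0.00187). Of 5 angiogenic markers none was higher than in lymphatic or mural cells, and Adm, adrenomedullin, had a single UMI in blood endothelial cells against 51 in lymphatic ones (adjusted p = 0.0316), a call that ended under 4 of the 11 settings (0.0579 to 0.0883).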

How the data were processed

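Per the labels' protocols, cells were captured in droplets on the BMKMANU DG1000 platform. The authors' deposited matrices hold whole-number counts per gene and barcode, taken here as UMI counts, which the sources do not state. STAR, Cell Ranger 7.0.0 and GRCm39 are named per the submitters' processing notes, and no source used here gives the release of the annotation. The members and the gene lists were chosen with earlier results of these data known.

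The matrices list 575908 and 610731 barcodes and 56953 genes. Cells were called by the filters given with the results, and classes by at least 3 markers. Cells of 2 classes were left out of the tests. Doublets were ranked with Scrublet in scanpy 1.11.5 (Python 3.11.15) and kept. UMIs were summed per mouse and class into 20 sums and fitted together with edgeR 4.0.16 in R 4.3.3 (TMM, filterByExpr, robust quasi-likelihood F test, 9 residual degrees of freedom), with the mouse as a block, since each animal contributes to every class. Adjustment was by Benjamini-Hochberg over all 10973 tested genes. The test was also run on simulated counts with known changes, and its outcome there is not given here. A 95% Clopper-Pearson or Poisson interval is given for shares and levels, and 3 UMIs are the floor against a class at 0. The 95% intervals of ratios are exact binomial ones on UMIs pooled over both mice, and cover counting error only.

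Genes named are, per comparison, the 10 called genes that changed most, higher and lower, at a mean of at least 50 CPM, up to 4 of the highest members of each list, and the rule and segment markers; other genes were named after their values were seen. A gene that the rule selected against mural cells is not reported here. Alternatives were at least 2000 UMIs, at most 10% mitochondrial UMIs, other marker numbers, cells of 2 classes kept, Scrublet ranks removed, thinning to 1000 UMIs, DESeq2 1.42.0, no filter, no block and each mouse left out. Leaving out the deepest cell of each mouse was added after the data were seen. Promoters come from RefSeq (GRCm38.p6), and the exon overlaps from GENCODE coordinates on GRCm38. Overlaps in the annotation used for counting, on GRCm39 per the submitters' processing notes, were not examined.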

Additional observations from a re-analysis of the deposited data

How the results depend on the processing

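Of 23816 cells, the share selected, 1.15% as the mean of both mice, was 0.764% with at least 4 of 7 markers, 0.949% with no lymphatic marker allowed and 0.704% after thinning each cell to 1000 UMIs. The share of cells assigned to a vessel segment, 57.6%, was 64.0% at a minimum of 2000 UMIs, 63.1% with at least 4 of 7 markers, 50.3% with cells of 2 classes kept, and 53.7% and 53.1% where another class needed 2 or 4 markers. Asking for 3 segment markers lowered it to 31.5% (capillary 12.4%, against 22.6%, and venous 9.51%, against 21.6%), and thinning to 35.3% (arterial 5.09%, against 10.8%, and capillary 14.3%). The 684 genes called against lymphatic endothelial cells became 1037 at 2000 UMIs, 1458 with cells of 2 classes kept and 1157 after removal of the cells with the highest doublet scores. The cause of these shifts was not tested, apart from the fewer UMIs that thinning leaves. Against all other classes, the 187 lower genes became 286 at 2000 UMIs, 298 after that removal and 96 where another class needed 4 markers. The classes in the fit changed as well, from 10 to 8, 9 and 11 in these settings. The mean of the other classes was then taken over a different set, so these counts are not of the same comparison. Other totals of calls, and other counts of higher or lower genes against mural cells and all other classes, stayed within 1.5 times of the reported ones.

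Without the replicate block, 544, 1098 and 1318 genes were called against lymphatic cells, mural cells and all other classes, against 684, 1270 and 1410 with it. With 1 mouse left out no test can be made. Of the called genes, 683 and 683, 1270 and 1270, and 1405 and 1407 kept their direction in the single mouse left. The genes were called from these same mice, which favours such agreement, so it is no separate support. Timp4, higher than over all other classes with both mice, was at -0.88 in mouse 1 alone and at 3.87 in mouse 2 alone. Over 335 values of single genes under all alternatives, 3813 of 4344 stayed on the same side of the threshold or within the spread. Another 194 lost the call, all under settings with a test, and 336 moved. All that moved did so with 1 mouse left out: 172 of 335 without mouse 1 and 164 of 335 without mouse 2. There a log2 difference of CPM plus 1 was set against the fitted log2 fold change, which is an unlike measure. Small class libraries limit what is seen: levels under about 6.79 CPM cannot be told from 0 in the blood endothelial cells.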
